A study of Mus musculus with 16 samples.

Results

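Transcript levels common to both Musashi transgenes were read by setting all 8 transgenic testis arrays against all 8 wild-type arrays, which is all 16 arrays of the series, with the breeding line kept as a block. The transgenic arrays comprised 4 from mice overexpressing Musashi-1 in the testis (TgMsi1) and 4 from mice overexpressing Musashi-2 in the testis (TgMsi2). The wild-type arrays comprised 4 from wild-type littermates of the TgMsi1 mice, Wt(TgMsi1), and 4 from those of the TgMsi2 mice, Wt(TgMsi2). All mice were B6xCBA and 3 months old, and total RNA came from the whole testis. A transgenic group and its littermates are called a line here, the Msi1 line and the Msi2 line. Both transgenes are described as testis-specific, with no promoter named in the sources used here, and no label says that the 4 arrays of a group came from separate mice. P-values therefore reflect the spread between arrays of a group, whether biological or technical. In the test that pools the lines, the spread also takes in any difference of the transgene effect between the lines.

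Musashi proteins bind RNA and control the translation, splicing and stability of the transcripts they bind. They are known best from stem cells and from the nervous system, and in the mouse testis both are made in germ cells among others. The testis holds germ cells at every step from spermatogonia through meiotic spermatocytes and round spermatids to elongating spermatids, together with the Sertoli cells that nurse them and, between the tubules, Leydig cells, vessels and macrophages. In whole testis, fewer cells of a type and less RNA per cell cannot be told apart, and that holds for every value below.

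Values are the deposited log2 signals of 25697 probes on Illumina bead arrays, whose range was 7.37 to 14.51 with a median of 7.83 on every array. Arrays of 1 group correlated at r between 0.988 and 0.996. On the first principal component, with 40.9% of the variance, the TgMsi2 arrays lay between 9.2 and 35.3 and TgMsi1 replicate 2 at 10.7, while the other 11 arrays lay between -16.4 and -3.46. Gene names were at hand for 932 probes only, those of 840 genes that the authors listed as differing in 1 or both lines. Counts of named genes are therefore drawn from a set already chosen on these arrays. Msi1 and Msi2 were not among these genes, so the genotype labels were not checked by their own transcripts.

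With both lines pooled, limma called 1664 of 25697 probes (6.48%) at a Benjamini-Hochberg adjusted p under 0.05. Of these, 738 were higher in transgenic testes (2.87% of all probes) and 926 were lower (3.6%). The count ran from 711 to 2201 when 1 array was left out, and the arrays that moved it are named with the last counts. The pooled difference is the mean of those of the lines, so a called probe nearly always has 1 sign in both. The differences were small: 119 called probes exceeded a 1.5-fold change and 10 exceeded 2-fold. They were also unequal between the lines, since 1454 of the 1664 were larger in the Msi2 line. The median size over called probes was 0.19 in the Msi1 line and 0.37 in the Msi2 line on the log2 scale.

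A pooled call was counted as seen in both lines when each line alone had the pooled sign and an unadjusted p under 0.05. That held for 810 probes (3.15% of all), 291 of them higher (1.13%) and 519 lower (2.02%). Of the other 854, 807 met this in the Msi2 line only and 47 in the Msi1 line only. A stricter test, which takes the larger of the p-values of the lines and adjusts it over all probes, called 0 probes in limma, although 849 had such a p under 0.05 before adjustment. Its lowest adjusted p was 0.0887, at Ppa2. The test of the difference between the lines called 2 probes (0.00778%), and 2821 had an unadjusted p under 0.05.

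**Figure D1:**
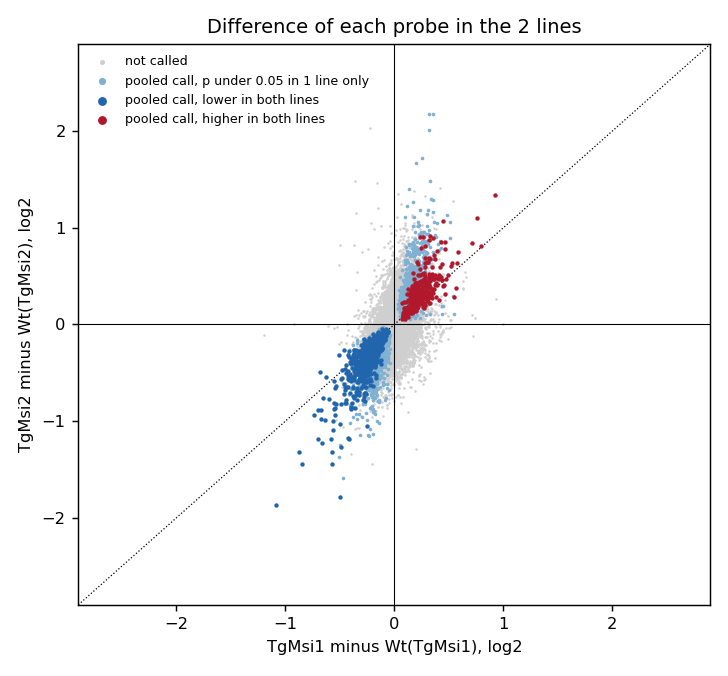
Each point is 1 of 25697 probes, with its log2 difference between TgMsi1 and Wt(TgMsi1) arrays on the horizontal axis and between TgMsi2 and Wt(TgMsi2) arrays on the vertical axis; the dotted line marks equal differences. The 291 red and 519 dark blue probes were called in the pooled test and had an unadjusted p under 0.05 in both lines, and 647 of these 810 lie further from 0 in the Msi2 line than in the Msi1 line.

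Over all probes the differences of the lines correlated with Pearson's r of 0.539 and Spearman's rho of 0.391, and with 0.564 and 0.545 over the 10831 probes with a mean log2 above 8. The lines share no arrays, but their sorted values differed by at most 0.006, as after joint normalization, and probes are not independent replicates. Without TgMsi1 replicate 2, the array that lay beside the TgMsi2 arrays on the first component, r was 0.339. Without TgMsi2 replicates 1 and 3 it was 0.522.

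No probe had a lower adjusted p in the pooled test than those of Ppa2 and Fancd2. Ppa2 is the mitochondrial inorganic pyrophosphatase, an enzyme that splits pyrophosphate into phosphate. Its signal was 11.04, 11.13, 11.05 and 11.07 on the TgMsi1 arrays, against 10.57, 10.79, 10.43 and 10.52 on the Wt(TgMsi1) arrays. On the TgMsi2 arrays it was 11.02, 11.06, 10.96 and 10.97, against 10.50, 10.46, 10.63 and 10.37 on the Wt(TgMsi2) arrays. All 8 transgenic arrays lay above all 8 wild-type arrays. The pooled difference was 0.50 ± 0.05 (SE, limma adjusted p = 0.000323), a fold of 1.42, and it was nearly equal in the lines, 0.49 in the Msi1 line and 0.51 in the Msi2 line.

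Ppa2 was read by 3 named probes, which are shown because their agreement rests partly on shared sequence. The first 30 of their 50 bases are given 5′ to 3′, with bases in capitals where the same run of at least 20 bases also lies in another Ppa2 probe.
Ppa2 probe 1: ggaagatcctcacctaAGAGATAAGAGCAC
Ppa2 probe 2: AGAGATAAGAGCACCGACTGCTGTGGGGAT
Ppa2 probe 3: ggctttcgccctcgacgttattaactctgc
Probe 1 is given at chr3:133002232-133002281 and probe 2 at chr3:133002247-133002296, both on the plus strand, and they share a run of 34 bases. Probe 3 shares at most 6 bases in a row with either and is given in 2 pieces between 133030914 and 133033392 of chromosome 3, so its bases come from separate stretches. For these positions the genome build is not given in the sources used. The 3 probes gave pooled differences between 0.44 and 0.50, and all 3 were seen in both lines. Any Ppa2 probe that the authors did not list has no name here and was not read.

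Among named genes, the fall with the smallest adjusted p was that of Fancd2, which acts in the repair of DNA crosslinks in the Fanconi anaemia pathway. Its signal was 9.75, 9.72, 9.84 and 9.88 on the TgMsi1 arrays, against 10.19, 10.16, 10.15 and 10.34 on the Wt(TgMsi1) arrays. The TgMsi2 arrays gave 9.33, 9.45, 9.48 and 9.66, against 9.99, 10.07, 10.01 and 10.02 on the Wt(TgMsi2) arrays. All 8 transgenic arrays lay below all 8 wild-type arrays. The pooled difference was -0.48 ± 0.05 (SE, limma adjusted p = 0.000323), with -0.42 in the Msi1 line and -0.54 in the Msi2 line. Its probe is given at 113546080 to 113546129 of chromosome 6. Fancl, the other named gene of the 18 on the list of DNA repair and Fanconi anaemia genes, did not pass (0.21, adjusted p = 0.27).

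Separation of all 8 transgenic arrays from all 8 wild-type arrays was found for 142 probes (0.553% of all), 39 of them higher and 103 lower in transgenic testes. A looser separation, within each line and in the same direction, held for 283 probes (1.1%), 112 higher and 171 lower, while 7 probes were separated in opposite directions.

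Among named genes seen in both lines, the rise with the largest pooled difference was that of Gsdmd, gasdermin D, which forms the membrane pores of the cell death called pyroptosis. Its signal was 9.73, 9.81, 9.58 and 9.60 on the TgMsi1 arrays, against 8.73, 9.42, 8.78 and 8.76 on the Wt(TgMsi1) arrays. The TgMsi2 arrays gave 9.41, 9.97, 9.91 and 9.85, against 8.70, 8.55, 8.65 and 8.84 on the Wt(TgMsi2) arrays. Each line's groups were apart, and only Wt(TgMsi1) replicate 2 came up to the lowest transgenic array. The pooled difference was 0.93 ± 0.11 (SE, limma adjusted p = 0.00105). A further Gsdmd probe rose by 1.13 ± 0.16 (SE, adjusted p = 0.00202). The pair is shown because the probes, unlike the first pair of Ppa2, read separate stretches: the longest run they share has 7 bases, so no base stands in capitals.
Gsdmd probe 1: agaatccccccaggtgcactgggaaccaac
Gsdmd probe 2: gggaagccaagaaccatactcagtcacagg
Gsdmd lies on chromosome 15 in RefSeq, and probe 2 is given at chr15:75694573-75694622 on the plus strand.

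Wt(TgMsi1) replicate 2 also stood at the transgenic level for other rising genes. Tbx1, a T-box transcription factor known from heart and pharyngeal development, was 9.59, 9.62, 9.72 and 9.66 on the TgMsi1 arrays, against 8.50, 9.62, 8.79 and 8.50 on the Wt(TgMsi1) arrays. On the TgMsi2 arrays it was 9.26, 9.40, 9.34 and 9.99, against 8.54, 8.75, 8.64 and 8.80 on the Wt(TgMsi2) arrays. Its pooled difference was 0.80 ± 0.14 (SE, limma adjusted p = 0.0071), and the lines gave 0.79 and 0.81. Fxyd2, a regulatory subunit of the sodium pump, rose by 0.78 ± 0.13 (SE, adjusted p = 0.00491), with 9.86 on Wt(TgMsi1) replicate 2 against 8.72 to 8.97 on the other 3 Wt(TgMsi1) arrays. Without that array the Msi1-line difference of Tbx1 was 1.05 and that of Fxyd2 was 0.97, against 0.79 and 0.72 with it. The both-lines test then called 17 probes, among them those of Gsdmd, Tbx1, Fxyd2, Ppa2, Fancd2 and Epsti1. The array was picked here for its high values on rising genes, so their larger rises without it follow from that choice. Of the 16 fits that leave out 1 array, only 2 called any probe in the both-lines test. The array stood apart in the same direction for Tnfrsf10b, the death receptor of the ligand TRAIL, at 9.49 against 9.01 to 9.08 on the other 3. Tnfrsf10b rose by 0.66 ± 0.11 (SE, adjusted p = 0.00543).

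**Figure D2:**
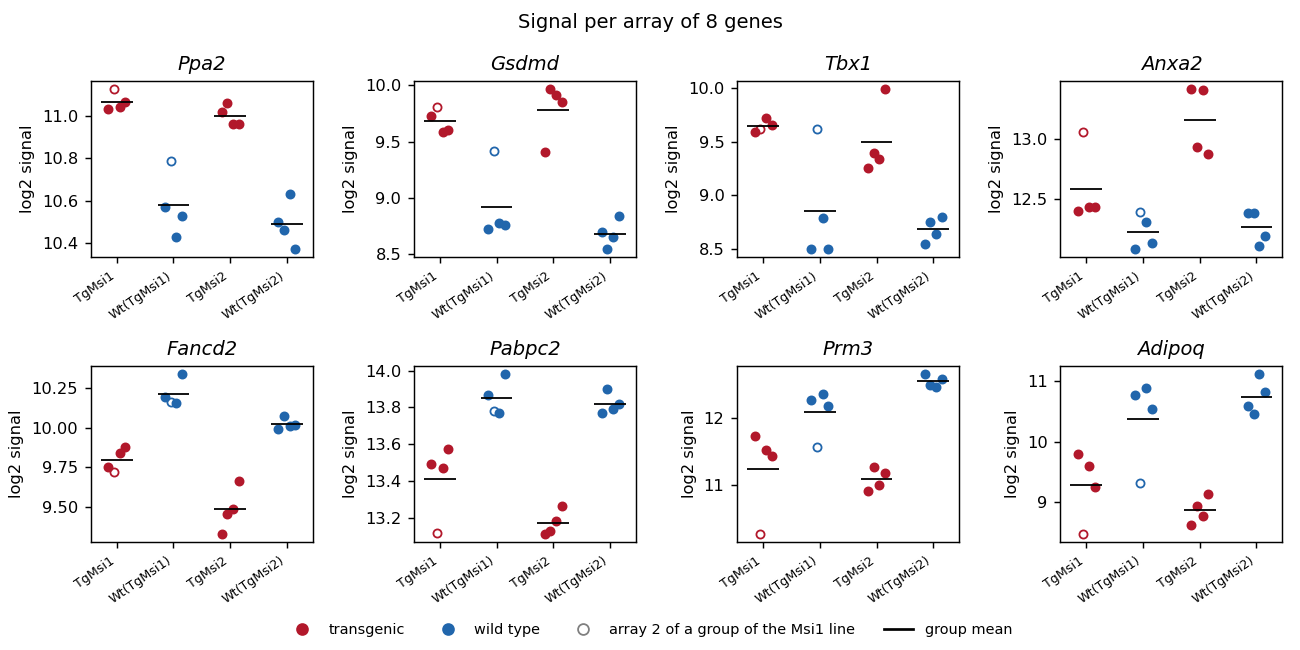
Deposited log2 signal on each array (points, replicates 1 to 4 from left to right) and the mean of each group (line) for 8 genes; open circles are TgMsi1 replicate 2 and Wt(TgMsi1) replicate 2. For Ppa2, Anxa2, Fancd2 and Pabpc2 all 8 transgenic arrays lie to 1 side of all 8 wild-type arrays, while Wt(TgMsi1) replicate 2 lies away from the rest of its group for Gsdmd, Tbx1, Prm3 and Adipoq.

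The other leading rises were of genes with varied roles. Dtna, which encodes a dystrobrevin of the dystrophin complex, rose by 0.76 ± 0.12 (SE, limma adjusted p = 0.00483), with 0.44 in the Msi1 line and 1.07 in the Msi2 line. Cd59a, which encodes an inhibitor of the complement membrane attack complex, was 10.64 at the lowest, 11.13 at the median and 12.01 at the highest over transgenic arrays, against 10.10, 10.63 and 10.88 over wild-type arrays. Its pooled difference was 0.66 ± 0.15 (SE, adjusted p = 0.0252), and it missed the threshold when TgMsi2 replicate 3 or Wt(TgMsi2) replicate 4 was left out, at an adjusted p of up to 0.0555. Prkra, a double-stranded RNA-binding activator of the kinase PKR, rose by 0.64 ± 0.11 (SE). Crls1, cardiolipin synthase, which makes the signature lipid of mitochondria, rose by 0.62 ± 0.09 (SE) and ran from 9.91 to 10.84 over transgenic arrays, against 9.53 to 9.94 over wild-type arrays. Only TgMsi1 replicate 3 and Wt(TgMsi1) replicate 2 crossed between the ranges.

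Anxa2, a calcium-dependent membrane-binding protein, was 12.40 at the lowest, 12.90 at the median and 13.41 at the highest over transgenic arrays, against 12.08, 12.25 and 12.39 over wild-type arrays. The ranges met but did not overlap. The pooled difference was 0.62 ± 0.13 (SE, limma adjusted p = 0.0144), and the Msi1-line difference of 0.35 was 0.19 without TgMsi1 replicate 2, whose signal was 13.05 (limma unadjusted p = 0.162). Smarca1, an ISWI-type chromatin remodeller, rose by 0.62 ± 0.13 (SE), and Cd151, a tetraspanin, by 0.59 ± 0.12 (SE). All 3 named Cd151 probes were called, with rises of 0.50 to 0.61, but only 1 of them was seen in both lines. Fcer1g, the gamma chain of immunoglobulin Fc receptors, rose by 0.58 ± 0.11 (SE), although Wt(TgMsi1) replicate 3 at 8.35 lay within the TgMsi1 range of 8.18 to 8.54.

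Falls outnumbered rises among the probes seen in both lines. Adipoq, adiponectin, a hormone otherwise known from fat cells, had the largest pooled difference: 9.79, 8.49, 9.59 and 9.25 on the TgMsi1 arrays, against 10.76, 9.31, 10.88 and 10.53 on the Wt(TgMsi1) arrays. The TgMsi2 arrays gave 8.63, 8.94, 8.78 and 9.15, against 10.59, 10.45, 11.11 and 10.81 on the Wt(TgMsi2) arrays. The pooled difference was -1.48 ± 0.24 (SE, limma adjusted p = 0.00496), and Wt(TgMsi1) replicate 2 was the only wild-type array within the transgenic range. Adipoq was the only named gene of 11 on the list of fat cell markers, so the rest of that list was not read.

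Prm3, a gene of the protamine cluster that spermatids use, was 11.73, 10.29, 11.52 and 11.44 on the TgMsi1 arrays, against 12.27, 11.57, 12.35 and 12.18 on the Wt(TgMsi1) arrays. On the TgMsi2 arrays it was 10.92, 11.28, 11.004 and 11.18, against 12.65, 12.49, 12.45 and 12.58 on the Wt(TgMsi2) arrays. The pooled difference was -1.15 ± 0.19 (SE, limma adjusted p = 0.00491). TgMsi1 replicate 2 and Wt(TgMsi1) replicate 2 were each the lowest of their group, for Prm3 as for Adipoq. Without both of them the Msi1-line difference of Prm3 was -0.70 and that of Adipoq was -1.18, against -0.85 and -1.09 with them.

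Gdf9, a growth factor of the TGF-beta family known from oocytes, fell by 0.94 on the log2 scale, with 9.21 at the median of transgenic arrays and 10.28 at the median of wild-type arrays. Hoxa4, a homeobox transcription factor, fell by 0.94 as well, with -0.70 in the Msi1 line and -1.19 in the Msi2 line. Adam30, of a family of membrane proteases and adhesion proteins with many testis members, ran from 8.996 to 9.88 over transgenic arrays, against 10.02 to 10.69 over wild-type arrays, without overlap. Npb, the precursor of neuropeptide B, ran from 8.32 to 9.01 over transgenic arrays, against 9.04 to 9.85 over wild-type arrays, again without overlap. Cpa5, a carboxypeptidase, was likewise separated, and the adjusted limma p of these 5 genes lay between 0.00142 and 0.00639.

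The rest of the leading falls were of genes with varied roles. Fcmr, the Fc receptor for immunoglobulin M, ran from 8.35 to 9.83 over transgenic arrays, against 9.89 to 10.71 over wild-type arrays. Its difference was -0.50 in the Msi1 line and -1.78 in the Msi2 line, and in the Msi1 line it was -0.27 without TgMsi1 replicate 2 (limma unadjusted p = 0.0628). Nckap1l, a blood-cell subunit of the actin-regulating WAVE complex, fell by 0.83, with -0.73 and -0.94 in the lines. Ntm, a neural adhesion molecule, fell by 1.01, and Cgnl1, a protein of cell junctions, fell by 0.88. Spertl fell by 0.88 and ran from 9.39 to 10.81 over transgenic arrays, against 10.48 to 11.01 over wild-type arrays, so its ranges overlapped. A further named Spertl probe fell by 0.59 and was called, but was not seen in both lines. Without TgMsi1 replicate 2, 16 of the 24 leading rises and falls were still seen in both lines, and Cd59a, Anxa2, Smarca1, Cd151, Fcmr, Ntm, Spertl and Cgnl1 were not.

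**Figure D3:**
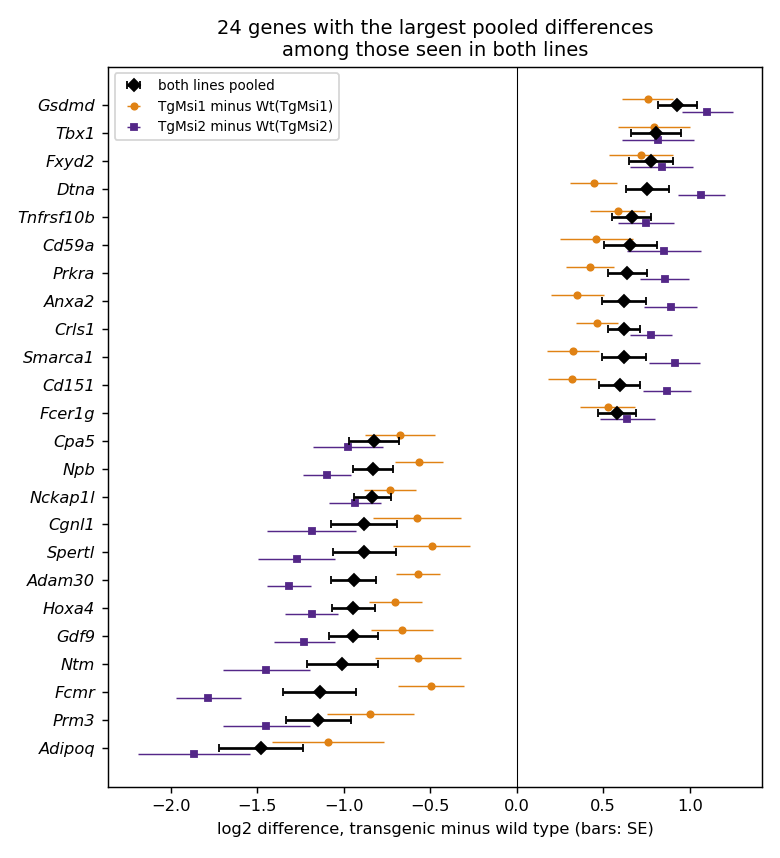
Log2 difference, transgenic minus wild type, of the 12 rises and 12 falls with the largest pooled difference among named genes seen in both lines; diamonds are the pooled values, circles the Msi1 line and squares the Msi2 line, with bars of 1 SE. For Tbx1, Fxyd2, Fcer1g and Nckap1l the lines lie close together, and for Fcmr, Adam30 and Smarca1 the Msi2 line lies further from 0.

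Among genes of the lists, Pabpc2, a testis poly(A)-binding protein that binds messenger RNA tails, was separated over all arrays. Its signal ran from 13.11 to 13.57 over transgenic arrays, against 13.77 to 13.98 over wild-type arrays, and its pooled difference was -0.54 ± 0.06 (SE, limma adjusted p = 0.000872). It was 1 of 2 named genes on the list of RNA-binding and translation control, and the other, Ybx3, did not pass (0.08, adjusted p = 0.717). Epsti1, on the list of interferon and antigen presentation genes, ran from 7.84 to 8.11 over transgenic arrays, against 8.38 to 8.995 over wild-type arrays. Its pooled difference was -0.69 ± 0.07 (SE, adjusted p = 0.000548), and -1.32 once each array's lowest signal was subtracted, since it is dim. B2m, the shared light chain of class I antigen-presenting molecules, rose by 0.72 in the pooled test but not in both lines. Its call was lost in 10 of the 16 fits that leave out 1 array each, when the array left out was number 2 of TgMsi1, 2 or 4 of Wt(TgMsi1), 1 to 3 of TgMsi2 or any of Wt(TgMsi2), at an adjusted p of up to 0.0756. The third named gene of that list, Ifitm3, did not pass (0.45, adjusted p = 0.129).

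Late germ cell genes were lower where they passed. For all lists, the share to set beside a count of called members is that of all 840 named genes: 53.2% were called in the pooled test, 26% as higher and 27.3% as lower, 24.9% were seen in both lines, and 56.2% lay above 0. No list was set apart from these shares by a test. Of the 25 elongating spermatid markers, 2 were named and both fell in both lines. They were Prm3 and Gapdhs, the glycolytic enzyme of the sperm tail, which ran from 13.35 to 13.73 over transgenic arrays, against 13.78 to 14.09 over wild-type arrays. Of the 25 round spermatid markers, 4 were named and 2 fell in the pooled test, Spam1, a sperm surface hyaluronidase (-0.48, adjusted p = 0.0298), and Spaca4, an acrosomal membrane protein (-0.57, adjusted p = 0.0461). Neither was seen in both lines. The call of Spam1 was lost without TgMsi1 replicate 2, TgMsi2 replicate 1 or any 1 Wt(TgMsi2) array, 6 of the 16 fits that leave out 1 array. That of Spaca4 was lost in 11 of 16 fits and held when the array left out was number 1, 3 or 4 of TgMsi1, number 2 of Wt(TgMsi1) or number 4 of TgMsi2. Of the 21 late spermatocyte markers, 3 were named, and Aurkc, a meiotic kinase, fell in both lines (-0.46, adjusted p = 0.00291). Its signal ran from 7.86 to 8.30 over transgenic arrays and from 8.33 to 8.64 over wild-type arrays. The other named members, Ccna1 and Ybx3, did not pass, and Ybx3 lay above 0. No spermatogonial marker of 22 and no meiotic axis gene of 25 was named, so these cell stages were not read here.

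Named members of the lists for cells around the germ cells lay above 0 in the pooled fit, with larger values in the Msi2 line than in the Msi1 line. That does not extend to genes off these lists. Nos3, the endothelial nitric oxide synthase, fell by 0.45 and 0.38 at its 2 probes, both seen in both lines, and the blood-cell gene Nckap1l fell by 0.83. Of all 840 named genes, 56.2% lay above 0 and 26% were called higher. All 8 named genes of the 21 on the Leydig cell list lay above 0, with 0 seen in both lines. In the pooled test 4 of the 8 rose. They were Insl3, the hormone of testis descent, Tspo, a mitochondrial cholesterol-binding protein, Vcam1, an adhesion molecule, and Lcn2, a secreted binder of iron carriers. Aldh1a1, Cyp11a1, Hsd17b3 and Prlr did not pass. Each of the 4 calls was lost in some of the fits that leave out 1 array. That of Insl3 was lost when the array left out was number 2 of TgMsi1, 1 to 3 of TgMsi2 or 2 to 4 of Wt(TgMsi2), and that of Vcam1 when it was number 1 to 3 of TgMsi2 or any 1 Wt(TgMsi2) array, 7 of 16 fits each. Tspo lost its call in 10 fits, when the array left out was number 1 or 2 of TgMsi1, 2 or 4 of Wt(TgMsi1), 1 or 3 of TgMsi2 or any 1 Wt(TgMsi2) array. Lcn2 lost it in 12 and held it when the array was number 3 or 4 of TgMsi1 and 1 or 3 of Wt(TgMsi1). Insl3 was 0.32 in the Msi1 line and 0.87 in the Msi2 line. All 6 named Sertoli cell markers of 25 lay above 0 as well, between 0.30 and 0.55, and 0 passed the limma test, with adjusted p between 0.0514 and 0.253. The 8 Leydig genes had a summed signal, on the log2 scale, of 14.41 to 14.97 on TgMsi1 arrays, against 14.03 to 14.85 on Wt(TgMsi1) arrays, which overlap, and of 15.24 to 15.78 on TgMsi2 arrays, against 14.15 to 14.77 on Wt(TgMsi2) arrays, which do not. Summed signals here add unlogged values, so bright genes weigh most. Lcn2, which is also on the acute phase list, had a mean of 14.26 on TgMsi2 arrays, against 12.59 on Wt(TgMsi2) arrays. That of Insl3 was 13.89 against 13.02. The part that levels of these cell types play in the other differences was not tested.

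Immune and matrix genes were read in the same way. Of 21 macrophage and immune markers, 6 were named, Fcer1g rose, and the other 5 did not pass (0.26 to 0.49, adjusted p = 0.17 to 0.425). The summed signal of these 6 genes was 11.24 to 12.02 on TgMsi1 arrays, against 11.44 to 12.01 on Wt(TgMsi1) arrays, and 12.46 to 12.88 on TgMsi2 arrays, against 11.49 to 11.84 on Wt(TgMsi2) arrays. In the Msi1 line 5 of the 6 lay below 0. Of 18 acute phase and matrix genes, 9 were named, all 9 lay above 0, and 3 rose, with 0 seen in both lines. Of all 840 named genes, 56.2% lay above 0 and 26% were called higher. The 3 were Lcn2, Timp1 and Ambp. Timp1, an inhibitor of matrix proteases, was 0.36 in the Msi1 line and 2.17 in the Msi2 line. Its call was lost in 7 of 16 fits, when the array left out was number 2 of TgMsi1, 1 or 2 of TgMsi2 or any 1 Wt(TgMsi2) array. Ambp, a plasma protein precursor, was 0.43 in the Msi1 line and 0.11 in the Msi2 line, and its call was lost without TgMsi1 replicate 2 (adjusted p = 0.0504). Robo4, the 1 named gene of 12 endothelial markers, had a pooled difference of 1.16 that was 2.01 in the Msi2 line and 0.31 in the Msi1 line, and the Msi1-line value was -0.01 without TgMsi1 replicate 2. Its pooled call was lost in 8 of 16 fits, when the array left out was that one, number 1 to 3 of TgMsi2 or any 1 Wt(TgMsi2) array.

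**Figure D4:**
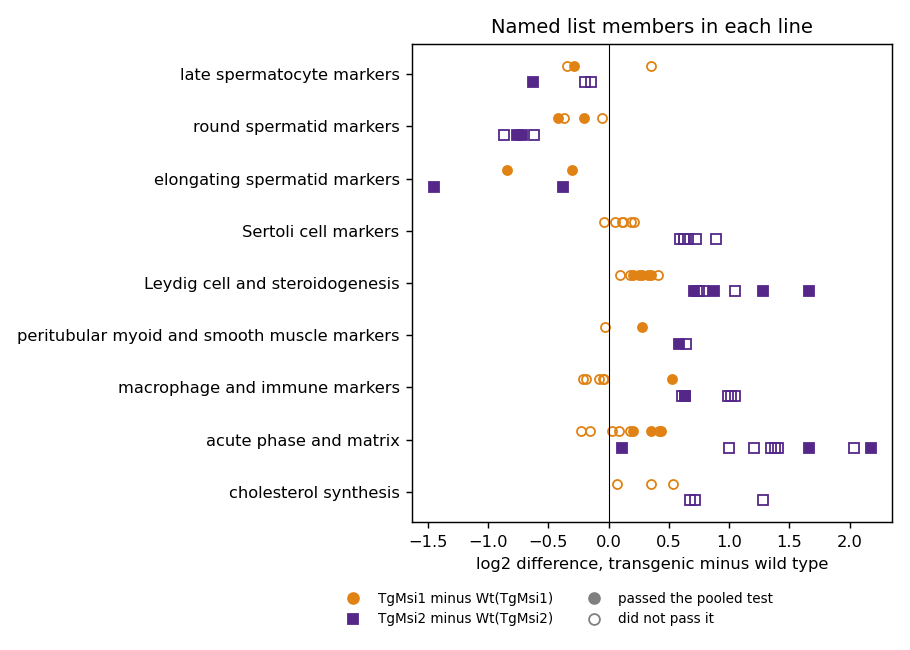
Each symbol is 1 named gene of a list, with its log2 difference between TgMsi1 and Wt(TgMsi1) arrays (circles) and between TgMsi2 and Wt(TgMsi2) arrays (squares); filled symbols passed the pooled test. Germ cell genes that passed lie left of 0 in both lines, and the squares of the Sertoli, Leydig and immune lists lie to the right of the circles, at higher values.

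Stress and cell cycle lists had few named genes. Of all 840 named genes, 53.2% were called in the pooled test and 26% were called higher. Both named genes of the 14 on the p53 and apoptosis list rose: Tnfrsf10b in both lines, and Gadd45a, a growth arrest gene, by 0.41 in the pooled test (adjusted p = 0.0346) with 0.23 in the Msi1 line. The call of Gadd45a was lost in 9 of 16 fits, when the array left out was number 2 of TgMsi1, 2 of Wt(TgMsi1), 1 to 3 of TgMsi2 or any 1 Wt(TgMsi2) array. Both named genes of the 17 on the heat shock and unfolded protein list rose in the pooled test and neither in both lines: the small heat shock gene Hspb1 by 0.57 and Xbp1, a transcription factor of the unfolded protein response, by 0.39. Mad2l1, of the spindle checkpoint, rose by 0.24 in the pooled test and was seen in both lines, with 0.28 in the Msi1 line and 0.20 in the Msi2 line. Its call was lost in 6 of 16 fits, when the array left out was number 2 of TgMsi1, 1 or 3 of TgMsi2 and 1, 2 or 4 of Wt(TgMsi2). Cdc20, the other named gene of the 20 on the mitotic cell cycle list, did not pass. Peritubular Acta2, smooth muscle actin, rose by 0.43 (adjusted p = 0.0334) and mitochondrial Ndufa4 by 0.50 (adjusted p = 0.0474), with Msi1-line values of 0.27 and 0.30. Acta2 lost its call in 6 of 16 fits, when the array left out was number 2 of Wt(TgMsi1), 1 to 3 of TgMsi2 and 1 or 2 of Wt(TgMsi2). Ndufa4 and Xbp1 lost theirs in 12 fits each and held it when the array was number 4 of TgMsi1, 1 or 3 of Wt(TgMsi1) and 4 of TgMsi2. Mylk, the other named gene of the 11 on the peritubular list of Acta2, did not pass. Of 3 named cholesterol synthesis genes 0 passed, with values of 0.40 to 0.91 and adjusted p of 0.0703 to 0.0866. Tbx1 was the only named gene of 21 reported Musashi targets, a list compiled with its value known.

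In 5 named genes the lines had opposite signs, each at an unadjusted p under 0.05. Mrpl48, a mitochondrial ribosomal protein, was 10.84, 10.92, 11.06 and 10.94 on the TgMsi1 arrays, against 10.71, 10.64, 10.51 and 10.77 on the Wt(TgMsi1) arrays. On the TgMsi2 arrays it was 10.16, 10.44, 10.44 and 10.36, against 10.78, 10.54, 10.70 and 10.47 on the Wt(TgMsi2) arrays. It was thus wholly higher in 1 line and wholly lower in the other, and its pooled difference was 0.00. The others were Cox20, an assembly factor of cytochrome oxidase (0.30 in the Msi1 line, -0.13 in the Msi2 line), Uhmk1, a kinase (0.31 and -0.31), Agpat2, an enzyme of phospholipid synthesis (0.27 and -0.27), and Ankrd7 (0.38 and -0.26). None of the 5 passed the test of the difference between the lines, with limma adjusted p between 0.0726 and 0.202. Of the 2 probes that did pass it, 1 has no name here and rose by 0.05 in the Msi1 line and 0.49 in the Msi2 line, and the other reads Tm9sf2, which differed by 0.03 and -0.61 and was chosen for mention after its values were seen.

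The authors' list of each line was then read on the arrays of the other line. The sources used here do not say how the lists were selected, and any part of the other line's arrays in that was not tested. The direction of a listed probe in its own line was taken from the differences computed here. Of the 292 probes of the authors' TgMsi2 list that were lower in the Msi2 line, 26.7% were lower in the Msi1 line at an unadjusted p under 0.05. Among probes with a mean log2 above 8 that lay below 0 in the Msi2 line, 11.2% were. Of the 408 probes of that list that were higher in the Msi2 line, 8.33% were higher in the Msi1 line, against 8.19% of the probes above 0. Without TgMsi1 replicate 2 the shares were 17.1% against 8.78% for the falls, and 4.9% against 5.67% for the rises.

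In the other direction, 118 probes of the authors' TgMsi1 list were lower in the Msi1 line. Of these, 65.3% were lower in the Msi2 line at an unadjusted p under 0.05, against 36.1% of the bright probes below 0 in the Msi1 line. For the rises the share was 40.6%, against 35.8%. At that p, the share of the falls was above that of bright probes in both readings. The share of the rises was nearer to it, a difference that was not tested. By sign alone both lay above bright probes. Of the TgMsi2 list's probes that were higher in the Msi2 line, 91.4% lay above 0 in the Msi1 line, against 71% of bright probes. Of those that were lower, 93.5% lay below 0, against 67.2%. Without TgMsi1 replicate 2 the shares were 82.6% against 63.5% and 72.3% against 62.4%. In the Msi2 line the TgMsi1 rises gave 75.8% against 66.1%, and the falls 91.5% against 72.1%. The authors' deposited tables themselves have 14 probes in common, 5.69% of the 246 for TgMsi1 and 2% of the 700 for TgMsi2. They read 4930430E16Rik, Ehbp1, Epsti1, Fcer1g, Fez1, Fxyd2, Gsdmd, Nckap1l, Pabpc2, Prps1l3, Rasgrf1 and Tbx1, and Tnfrsf10b with 2 probes, and each had 1 direction in both tables.

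Agreement between probes of a gene was read in the 26 genes with several named probes, of which at least 1 was seen in both lines. All named probes of a gene had the same sign in 26 of 26 genes, all were called in 22 and all were seen in both lines in 14. Only probes that the authors listed as differing have names. Other probes of these genes were not read, so the agreement is partly set by that choice. In 8 of the 26 genes every pair of probes shared a run of at least 20 bases, so these probes are not separate readings. Tnfrsf10b, Fez1 and Rasgrf1 were among the 8, with shared runs of 45, 46 and 49 bases. Probes with shorter shared runs were all seen in both lines for 9 genes: Fam20a, Gm773, Gsdmd, Nos3, Ppa2, Qrich2, Taf9, Tex47 and Zw10. Fam20a, which encodes a partner of a secretory-pathway kinase, fell by 1.10 at 1 probe and by 0.65 at the other.

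Among the 193 genes seen in both lines that were placed in RefSeq order, 6 neighbouring pairs had at most 2 coding genes between them, and 4 of the 6 had opposite signs, as had 44.2% of all pairs of these genes. So few pairs do not set neighbours apart from other pairs. Ppa2 rose while Gstcd, with 2 coding genes between them on chromosome 3, fell by 0.78. Rasgrf1, a Ras exchange factor, fell by 0.78 while its neighbour Ctsh, a lysosomal protease, rose by 0.52. Wipi1 rose by 0.46 while Fam20a fell, and Spdef rose by 0.47 while Pacsin1 fell by 0.31.

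The counts depended on single arrays. With 1 array left out, the pooled test called between 711 and 2201 probes. Without TgMsi1 replicate 2 it called 975, and without TgMsi2 replicates 1, 2 and 3 it called 778, 1015 and 711. Among wild-type arrays, it called 1075 without Wt(TgMsi1) replicate 4 and 983, 754, 858 and 732 without Wt(TgMsi2) replicates 1 to 4. The count seen in both lines ran from 513, without TgMsi1 replicate 2, to 956. A set of 320 probes was seen in both lines in all 16 of these fits, and 146 of them are named, in 134 genes. Of the 46 genes chosen by the naming rule that passed the pooled test, 30 passed in all 16 fits, 16 missed the threshold in at least 1, and 0 changed sign.

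**Figure D5:**
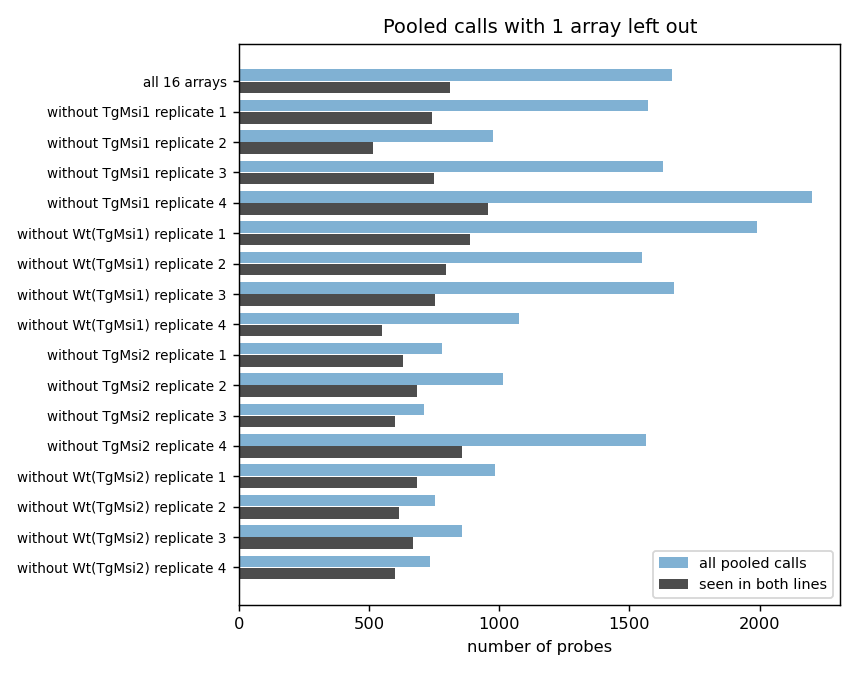
Number of probes called in the pooled test (light bars) and of those also seen in both lines (dark bars), with all 16 arrays and with each array left out in turn. The light bars run from 711 to 2201 and the dark bars from 513 to 956.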

How the data were processed

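GenomeStudio (version not given in the sources used here) is named in the submitters' processing notes. The deposited log2 values were used as they stand. Their normalization is not stated, but sorted arrays differed by at most 0.006, as after quantile normalization. The authors' deposited tables give an unadjusted p-value, a ratio and a signed fold score per probe, per the file headers. The tables supplied names, the membership of each list and, for the 14 probes in both, directions. A table of unnormalized values with 128 value columns tied to no sample was not used, apart from 2 name columns. Of 932 named probes 849 matched RefSeq (GRCm38.p6) by Entrez number, and 144 symbols were updated.

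limma 3.58.1 under R 4.3.3 fitted transgene and line over all 16 arrays (13 residual degrees of freedom), and a mean per group for the lines and their difference. The code was tested on simulated data. The members, gene lists, tests and most alternatives were chosen with earlier results of these data known. Genes named were the 12 rises and 12 falls with the largest pooled difference among genes seen in both lines (smallest pooled p per gene, predicted genes left out), up to 6 genes of opposite sign in the lines, and up to 3 called members of each list, while no gene met the rule for a pooled call whose lines differ. Replicate numbers were checked as pairs within each line: the correlation of same-numbered deviations ran from -0.292 to 0.438, over 0.1 in 5 of 8 pairs. That did not settle whether the numbers pair the arrays, and the main fits did not take them as pairs. The number of arrays limits the precision.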

Additional observations from a re-analysis of the deposited data

Results flagged for a closer look

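Among the 51 named genes and 4 groups, 13 of 204 groups of 4 held an array far from the other 3; chance alone gives about 1 in 20. Of the 13, 5 were Wt(TgMsi1) replicate 2: Gsdmd at 9.42 (others 8.73 to 8.78), Tnfrsf10b at 9.49 (9.01 to 9.08), Cd59a at 10.10 (10.57 to 10.64), Npb at 9.04 (9.45 to 9.50) and Epsti1 at 8.38 (8.67 to 8.71). In 4 of these 5 the array lay nearer the transgenic arrays than its group did, and for Cd59a it lay further away. TgMsi1 replicate 2 stood apart for Anxa2 at 13.05 (others 12.40 to 12.43), Npb at 8.32 (8.94 to 9.01) and Robo4 at 9.35 (7.96 to 8.17). TgMsi2 replicate 1 was low for Gdf9 at 8.82 and for Uhmk1 at 7.87. Single arrays were TgMsi1 replicate 4 for Ndufa4 at 11.17, Wt(TgMsi1) replicate 3 for Fcer1g at 8.35 and Wt(TgMsi2) replicate 2 for Dtna at 8.46.

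The effect differed between the lines for 2 probes by the interaction test in limma. Mrpl48 was higher on every TgMsi1 array and lower on every TgMsi2 array than on any array of its littermates, a difference of -0.55 between the lines (Msi2 line minus Msi1 line) with an adjusted p of 0.136.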

How the results depend on the processing

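The alternatives were run on the 46 genes chosen by the naming rule that passed the pooled test, and none of the 46 changed sign under them. Many lost their call: 13 without a term for the line and 12 with the line as a random block. Without TgMsi2 replicates 1 and 3, 20 lost it, and without both Msi1-line arrays numbered 2, 15 did. In the Msi1 line alone all 46 lost it, and in the Msi2 line alone 6 did. Without a term for the line the pooled test called 1039 probes, 368 of them higher, and with the line as a random block 1084 and 387. Higher calls were 1121 with 1 mean per group and 1140 among probes whose mean log2 exceeds 8. Whether the replicate numbers pair the arrays was not settled. Deviations of same-numbered arrays correlated at 0.02, 0.29, 0.44 and 0.17 in the Msi1 line. In the Msi2 line they correlated at 0.34, 0.12, -0.29 and -0.02. With a replicate block there were 1216 pooled calls, 456 of them higher, and 1033 seen in both lines. That block gave 5 probes in the both-lines test and 8 for the difference between the lines, and 11 of the 46 genes lost their call. The both-lines test called 1 probe each with an intensity trend and robust variance (12 for the difference between the lines), with array weights and with background subtracted (10 for the difference). Without TgMsi2 replicates 1 and 3 the calls were 351 (134 higher, 217 lower), 344 seen in both lines and 1 for the difference. Without TgMsi1 replicate 2 and Wt(TgMsi1) replicate 2, chosen after seeing the data, they were 1045 (360 higher), 13 in the both-lines test and 47 for the difference. The Msi1 line alone gave 0 calls, 0 higher and 0 lower, with 1791 probes at an unadjusted p under 0.05, and the Msi2 line alone gave 2269 calls, 1015 higher and 1254 lower.

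Leaving out 1 array gave 711 to 2201 pooled calls, 263 to 1074 higher, 448 to 1127 lower, 513 to 956 seen in both lines, 0 to 17 in the both-lines test (17 without Wt(TgMsi1) replicate 2, 2 without TgMsi2 replicate 4) and 0 to 107 for the difference (107 without TgMsi1 replicate 2). With background subtracted, the differences of Fcer1g, Ntm, Aurkc, Gadd45a, Epsti1, Ambp and Timp1 grew by over 1.5 times. Signals near the array floor limit what dim probes can show.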

Other observations

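The genes below were picked after their values were seen, so their counts carry no test. Autosomal retrocopies that testis cells transcribe were among the falls seen in both lines: Igbp1b by 0.80, D1Pas1 by 0.74, Prps1l3 by 0.59, Pabpc2 by 0.54 and Rnf113a2 by 0.45 on the log2 scale. All 8 transgenic arrays lay below all 8 wild-type arrays for Prps1l3, Pabpc2 and Rnf113a2. Of the 7 named Adam genes, read by 8 probes, 5 probes fell and 1 rose in the pooled test, with Adam4 counted at both of its probes. Of all 840 named genes, read at 1 probe each, 27.3% were called lower and 26% higher, so the counts are not on the same footing. Adam21 fell by 1.03, Adam29 by 0.56 and Adam4 by 0.51 and 0.50, none of them in both lines. Whether the Adam4 probes share sequence was not read. Adam23 rose by 0.54.

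Subunits of the general transcription factor TFIID fell in both lines: Tbp, the TATA-binding protein, by 0.38 in either line, and Taf9 by 0.81 and 0.46 at its 2 probes. Of the centriole, Sass6 fell by 0.43, Cep131 by 0.35 and Ccp110 by 0.27. Of the spindle checkpoint, Zw10 fell by 0.35 and 0.38 at its 2 probes, while Mad2l1 rose by 0.24. Among the rises were genes of phospholipid synthesis, Pcyt1a at 0.43 and Chpt1 at 0.42 beside Crls1 at 0.62, of fatty acid oxidation, Etfdh at 0.46 and Acaa2 at 0.53, and of lysosomes, Gusb at 0.52, Ctsh at 0.52, Ostm1 at 0.47 and Atp6v0e at 0.48. Pcyt1a was higher on all 8 transgenic arrays than on all 8 wild-type arrays, and at Chpt1 1 of 3 probes did not pass (0.30, adjusted p = 0.0863). At Acaa2 all 3 probes passed, with rises of 0.44 to 0.53. Chpt1 and Acaa2 were each seen in both lines at 1 of 3 probes.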
